A study of Mus musculus with 3 samples.

Results

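The genes described here are the receptor subunits, transcription factors and feedback inhibitor of the interferon pathway that were measured in transfected mouse hepatoma cells. They are Ifnar1, Ifnar2, Ifngr1, Ifngr2, Stat2, Irf9, Irf1, Irf7 and Socs1. They were taken as all probes whose RefSeq accession belonged to a listed gene, which gave 9 genes and 16 probes of the 22904 named genes and 56605 probes on the array. Each of the 9 genes had at least 1 probe well above background on all 3 arrays, and 15 of the 16 probes reached that level on every array.

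Hepa1c1c7, a cell line from a mouse liver tumour, was transfected with an expression plasmid. The plasmid was empty in the first group (empty vector), carried the open reading frame of the receptor tyrosine kinase Mst1r in the next (Mst1r vector), and carried that of the secreted protease inhibitor Slpi in the last (Slpi vector). All 3 groups shared the cell line and were transfected, and the labels give liver as the tissue. Differences between the transfections were not tested. Whether the plasmids share a backbone is not given in the sources used here. Each group was 1 sample on 1 single-colour Agilent array, so no difference has a replicate check and no test between groups was possible. The error given after each difference is the SD that repeated spots of an array give at that signal level, which covers spot error and no variation between cultures. Both vector arrays were set against the same empty vector array.

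Type I interferons, IFN-alpha and IFN-beta, bind a receptor made of IFNAR1 and IFNAR2, which carry the kinases TYK2 and JAK1. The kinases activate STAT proteins, of which STAT2 joins IRF9 in the complex ISGF3, and the complex binds the interferon-stimulated response element (ISRE) of target genes. Type II interferon, IFN-gamma, binds IFNGR1 and IFNGR2 with JAK1 and JAK2 and activates STAT dimers, which bind the gamma-activated site (GAS). IRF1 is a transcription factor known to be induced through GAS, IRF7 drives transcription of type I interferon genes, and SOCS1 blocks the receptor kinases of both branches.

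Between 46.7 and 48.5% of the probes were well above background, and the 75th percentile of the processed signal, to which each array was scaled, lay between 228.8 and 268.3. After this scaling the 7 spike-in probes still differed from empty vector by 0.11 (log2) on the Mst1r vector array and by 0.24 on the Slpi vector array. Rows 1 to 128 of the 384 rows held stray signal: between 2.68 and 4.01% of the dark control spots there had a signal over 50, against at most 2 such spots per array in the other rows, and the brightest reached 480.7. The Mst1r probe stayed at background on all 3 arrays, and the brighter Slpi probe read 6459 on empty vector, 3843 on Mst1r vector and 6680 on Slpi vector, while the dimmer one read 106.2, 91.66 and 85.82. Where these probes lie relative to the transfected sequences is not given in the sources used here, so the groups stand as labelled. Of 10 hepatocyte markers, 5 were well above background on all arrays (Alb, Afp, Trf, Krt8 and Krt18), and Hnf4a was on none.

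In Mst1r vector cells, 3 of the 9 genes were at least 1.5-fold higher than in empty vector cells, and all 3 act downstream of the receptors. These were Socs1, Irf1 and Stat2, while the receptor subunits Ifnar2, Ifngr1 and Ifngr2 lay below the empty vector level by less than 1.5-fold. Across all 17130 features tested the same way, 5.11% passed 1.5-fold upwards and 2.71% downwards, against 3 and 0 of the 9 genes. Above the empty vector level at all were 6 of the 9 genes and 42.1% of all features, and below it 3 of the 9 and 57.9%. The median log2 difference of the 9 genes was 0.35, and that of all features was -0.037. Socs1 was also at least 2-fold higher, as were 2.29% of all features, and none of the 9 was 2-fold lower (0.876% of all features). In Slpi vector cells none of the 9 genes was 1.5-fold higher or lower than in empty vector cells, where 1.44% of 16972 features were higher and 1.34% lower, and the median was 0.02. The scaling between arrays sets the sign of the small differences: the share of features above empty vector was 14.7% without scaling and 24.8% with spike-in scaling for Mst1r vector, and for Slpi vector it went from 50.7% to 87.4% with median scaling and 5.2% with spike-in scaling. Since RNA came from whole cultures, a change in every cell and a larger change in the transfected cells cannot be told apart, nor can fewer cells of a kind and less RNA per cell.

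**Figure D1:**
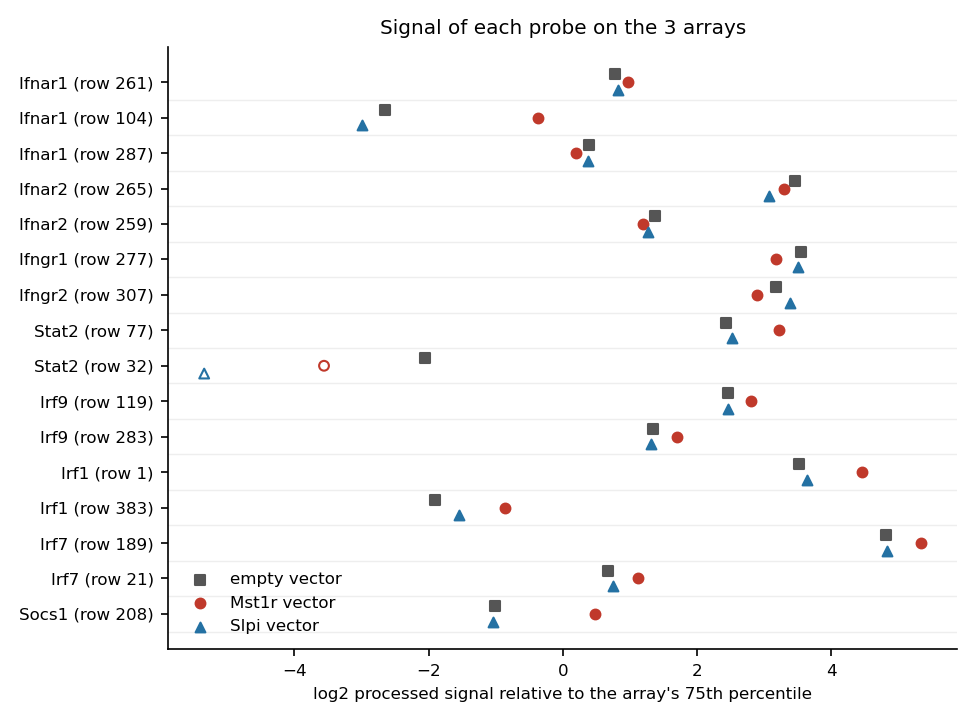
Signal of the 16 probes on the 3 arrays, 1 probe a line with its array row, as log2 of the processed signal relative to the 75th percentile of the array. Squares stand for empty vector, circles for Mst1r vector and triangles for Slpi vector, and open symbols for values not well above background. The Mst1r vector value lies apart to the right for Socs1, both Irf1 probes, the brighter Stat2 probe and the Ifnar1 probe in row 104. For Ifngr1 and Ifngr2 it lies to the left of the other arrays.

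The receptor subunits were well above background on every array. Ifnar1, the first subunit of the type I receptor, had a processed signal of 458.1 on empty vector, 450.0 on Mst1r vector and 447.9 on Slpi vector at its brightest probe (A_66_P120628, row 261). The 3 values were nearly level, and the scaled log2 differences from empty vector were 0.20 ± 0.145 for Mst1r vector (-0.03 without scaling) and 0.05 ± 0.145 for Slpi vector. The second probe (A_51_P168545, row 287) read 350.5, 262.9 and 330.7, with differences of -0.18 ± 0.145 and -0.01 ± 0.145, so the brighter probes gave opposite signs for Mst1r vector.

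The last Ifnar1 probe (A_55_P2438722, row 104) read 42.79 on empty vector, 176.7 on Mst1r vector and 31.92 on Slpi vector. Its log2 difference for Mst1r vector was 2.28 ± 0.596, which neither of the brighter probes showed. The probe lay in the rows with stray signal. Of the 10449 probes in those rows that were under 50 on both other arrays, 34 (0.325%) were at least as bright as this probe on the Mst1r vector array. Stray signal at this spot was not tested, and the 3 probes of Ifnar1 disagree.

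Ifnar2, the other type I subunit and the one that binds ligand most tightly, read 2957 on empty vector, 2254 on Mst1r vector and 2146 on Slpi vector at its brighter probe (A_52_P190405, row 265). Both vector arrays were lower, by -0.16 ± 0.116 for Mst1r vector and -0.38 ± 0.116 for Slpi vector (log2). The dimmer probe (A_51_P338924, row 259) read 694.7, 525.7 and 611.1, which gave -0.17 ± 0.145 and -0.11 ± 0.145. The Mst1r vector differences of both probes were alike, and the Slpi vector difference was larger at the brighter probe. Under the Slpi vector, 2.6% of all features were at least as low as the brighter Ifnar2 probe.

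Ifngr1, the ligand-binding subunit of the type II receptor, had 1 probe (A_51_P391445, row 277), which read 3129 on empty vector, 2059 on Mst1r vector and 2889 on Slpi vector. The Mst1r vector value was the lowest, with a log2 difference of -0.37 ± 0.116 from empty vector, and 6.99% of all features were at least as low. The difference for Slpi vector was -0.04 ± 0.116. Ifngr2, the signalling subunit of the same receptor, read 2425, 1697 and 2651 at its probe (A_52_P471395, row 307). The differences were -0.29 ± 0.116 for Mst1r vector and 0.21 ± 0.116 for Slpi vector, and 11.5% of all features were at least as low as Ifngr2 in Mst1r vector cells. None of the receptor genes reached 1.5-fold at its brightest probe as scaled here, although without scaling Ifngr1 did for Mst1r vector (-0.60), with spike-in scaling Ifnar2 did for Slpi vector (-0.62), and over the mean of its probes Ifnar1 did for Mst1r vector (0.77). The Slpi vector value of Ifngr2 was smaller than the 0.24 by which the spike-ins differed on that array.

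The kinases that sit on these receptors were within 0.1 log2 of empty vector in Mst1r vector cells. Jak1, used by both receptors, read 2010 on empty vector, 1749 on Mst1r vector and 1731 on Slpi vector, with log2 differences of 0.03 ± 0.116 and -0.14 ± 0.116. Jak2, the partner on the type II receptor, differed by 0.02 ± 0.145 and 0.01 ± 0.145 at its brighter probe, and Tyk2, the partner on the type I receptor, by -0.07 ± 0.273 and 0.04 ± 0.273. The median of the 3 kinases was 0.02 for Mst1r vector, where it fell below 0 without scaling, with spike-in scaling and with another background correction, and 0.01 for Slpi vector.

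The 3 genes past 1.5-fold, the transcription factors Irf1 and Stat2 and the inhibitor Socs1, are shown with the sequence upstream of their start, since ISRE and GAS are the elements through which the branches act. The windows are the 250 bases before a start in RefSeq (GRCm38.p6), printed in the direction of the gene. Capitals mark matches to the GAS core TTCNNNGAA or the ISRE core (GAAA, any 2 bases, GAAA), searched on both strands. They lie at chr11:53769764-53770013 (+) for Irf1, chr10:128270248-128270497 (+) for Stat2 and chr16:10785537-10785786 (-) for Socs1.
Irf1: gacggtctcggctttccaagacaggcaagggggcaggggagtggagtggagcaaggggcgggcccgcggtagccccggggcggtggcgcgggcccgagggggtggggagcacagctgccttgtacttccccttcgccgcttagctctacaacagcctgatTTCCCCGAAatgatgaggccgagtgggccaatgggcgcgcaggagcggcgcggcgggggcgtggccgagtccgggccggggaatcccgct
Stat2: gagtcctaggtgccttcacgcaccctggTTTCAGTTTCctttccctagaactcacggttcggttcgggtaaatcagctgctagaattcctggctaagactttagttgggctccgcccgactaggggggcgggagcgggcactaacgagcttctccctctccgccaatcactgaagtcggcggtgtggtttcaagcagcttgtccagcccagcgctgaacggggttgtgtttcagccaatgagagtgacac
Socs1: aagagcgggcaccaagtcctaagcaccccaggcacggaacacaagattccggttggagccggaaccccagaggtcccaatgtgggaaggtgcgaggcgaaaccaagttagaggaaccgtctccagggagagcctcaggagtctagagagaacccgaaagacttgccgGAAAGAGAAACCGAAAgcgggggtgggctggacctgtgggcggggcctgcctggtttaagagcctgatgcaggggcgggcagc
The capitals are a GAS core at positions -90 to -82 for Irf1, an ISRE core on the opposite strand at -222 to -213 for Stat2, and a pair of overlapping ISRE cores at -83 to -74 and -77 to -68 for Socs1.

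Over the 300 bases from 250 before to 50 after a start, the 9 genes had 11 windows. The ISRE core was in 2 of the 11 (Stat2 and Socs1) and in 3.44% of all 32851 windows of that length. The GAS core was in 3 of the 11 and in 8.3% of all windows. Beside Irf1, it was in the window of Ifnar2 at -214 to -206 and in that of Ifnar1 across the start at -5 to 4. The second start of Irf1 and the windows of Ifngr1, Ifngr2, Irf7 and Irf9 (with a pair of starts) held neither string of letters. A match is a description of the sequence only, and a window without one says nothing of the factors.

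**Figure D2:**
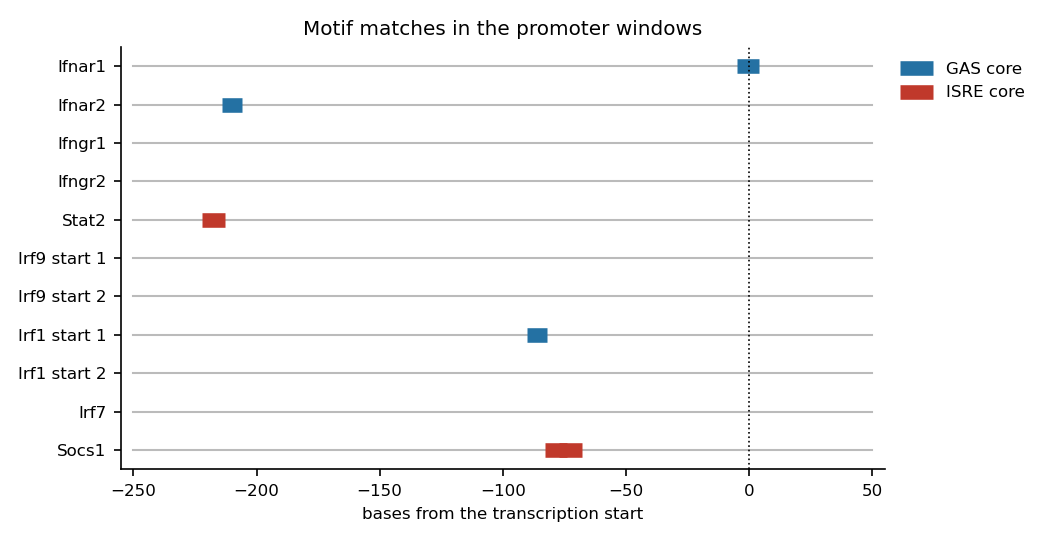
Positions of ISRE core matches (red) and GAS core matches (blue) in the 11 promoter windows, 1 window a line, in bases from the transcription start. Matches lie in the windows of Socs1, Stat2, Irf1 (first start), Ifnar1 and Ifnar2.

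Irf1 was higher in Mst1r vector cells at both of its probes. The brighter probe (A_55_P2000062, row 1) read 3070 on empty vector, 5045 on Mst1r vector and 3157 on Slpi vector. The Mst1r vector array stood apart, 1.93-fold above empty vector (0.95 ± 0.125, log2), and 2.55% of all features were at least as high. The Slpi vector difference was 0.12 ± 0.116. The dimmer probe (A_52_P175685, row 383), at the opposite edge of the array and outside the rows with stray signal, read 71.77, 126.2 and 86.93. Its differences were 1.04 ± 0.273 for Mst1r vector and 0.36 ± 0.273 for Slpi vector.

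Stat2, the STAT that pairs with IRF9 in ISGF3, read 1443 on empty vector, 2125 on Mst1r vector and 1460 on Slpi vector at its brighter probe (A_55_P2059606, row 77). The Mst1r vector value was 1.73-fold above empty vector (0.79 ± 0.116), and 3.33% of all features were at least as high. Without scaling it was 0.56, short of 1.5-fold, which left 2 of the 9 genes past it. The Slpi vector value was level with empty vector, at 0.10 ± 0.116. A dimmer probe (A_66_P102138, row 32) read 64.47, 19.43 and 6.267 and was well above background on empty vector only. At that probe the signal was at least 2.83-fold lower on Mst1r vector and at least 9.745-fold lower on Slpi vector, so the probes disagree. The spot errors of these differences were 0.596 and 0.723 (log2). Both Stat2 probes lay in the rows with stray signal, and the brighter probe read several times above the brightest stray control spot on every array while the dimmer one read below it.

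Irf9, a DNA-binding subunit of ISGF3, read 1480 on empty vector, 1604 on Mst1r vector and 1405 on Slpi vector at its brighter probe (A_55_P2114938, row 119). The scaled differences were 0.35 ± 0.116 for Mst1r vector and 0.00 ± 0.116 for Slpi vector. The other probe (A_51_P127367, row 283) read 683.4, 741.2 and 634.7, with differences of 0.35 ± 0.145 and -0.03 ± 0.145. The probes gave the same value for Mst1r vector, below 1.5-fold, and 10.3% of all features were at least as high.

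Irf7 read 7535 on empty vector, 9251 on Mst1r vector and 7217 on Slpi vector at its brighter probe (A_55_P2744251, row 189). The Mst1r vector value was 1.44-fold above empty vector (0.53 ± 0.135), just short of 1.5-fold, and 6.02% of all features were at least as high. The Slpi vector value was level, at 0.02 ± 0.135. The other probe (A_51_P421876, row 21) read 428.7, 498.5 and 427.0, with differences of 0.45 ± 0.145 and 0.07 ± 0.145.

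Socs1, the inhibitor that binds the receptor kinases, had the largest difference of the 9 genes. Its probe (A_51_P279606, row 208) read 133.5 on empty vector, 317.6 on Mst1r vector and 124.1 on Slpi vector. The Mst1r vector array was 2.79-fold above empty vector (1.48 ± 0.218), and 196 of 17130 features (1.14%) were at least as high. The Slpi vector value was within the spot error, at -0.03 ± 0.273. Socs1 rests on a single probe on a single spot, outside the rows with stray signal.

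**Figure D3:**
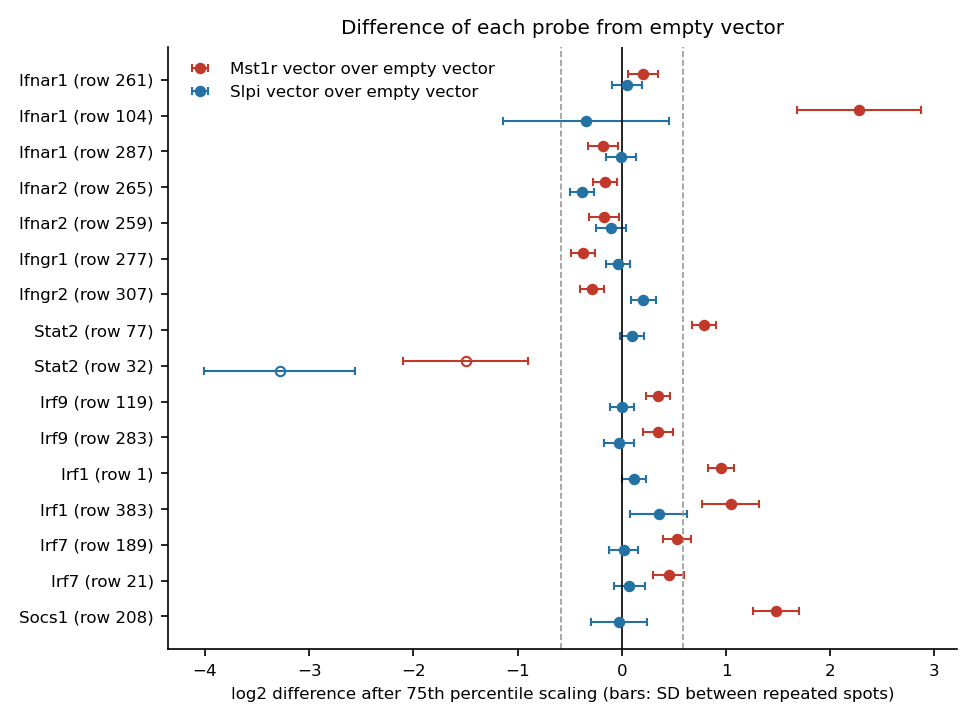
Log2 difference of each of the 16 probes from empty vector after 75th percentile scaling, for Mst1r vector (red) and Slpi vector (blue). Bars are the SD between repeated spots at that signal level, open symbols mark differences in which an array was not well above background, and dashed lines are at 1.5-fold. Socs1, both Irf1 probes and the brighter Stat2 probe lie past the upper line for Mst1r vector, with a single Ifnar1 probe (row 104) that the other Ifnar1 probes did not follow.

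Set against each other, the Mst1r vector and Slpi vector arrays gave the same 3 genes past 1.5-fold, with 1.51 ± 0.218 for Socs1, 0.83 ± 0.125 for Irf1 and 0.69 ± 0.116 for Stat2 (log2, Mst1r over Slpi). Of 16915 features, 5.14% were higher by that much and 2.61% lower, and none of the 9 genes was lower by that much. Only Socs1 of the 9 reached 2-fold, as did 2.08% of all features. Irf7 differed by 0.51 ± 0.135 and Irf9 by 0.34 ± 0.116. The type II receptor subunits were lower on Mst1r vector, by -0.49 ± 0.116 for Ifngr2 and -0.34 ± 0.116 for Ifngr1. The type I subunits were higher at their brightest probes, by 0.22 ± 0.116 for Ifnar2 and 0.16 ± 0.145 for Ifnar1, and lower at A_51_P338924 (Ifnar2, -0.07 ± 0.145) and A_51_P168545 (Ifnar1, -0.18 ± 0.145), while the dim Ifnar1 probe in row 104 was higher by 2.62 ± 0.596. Without scaling Stat2 (0.54) fell short of 1.5-fold and Ifngr2 (-0.64) passed it, as Ifngr2 also did with median scaling (-0.62), and with spike-in scaling Irf7 passed it (0.64). The median over the 9 genes was 0.34, and over all features -0.031. This comparison shares its Mst1r vector array with the one against empty vector.

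**Figure D4:**
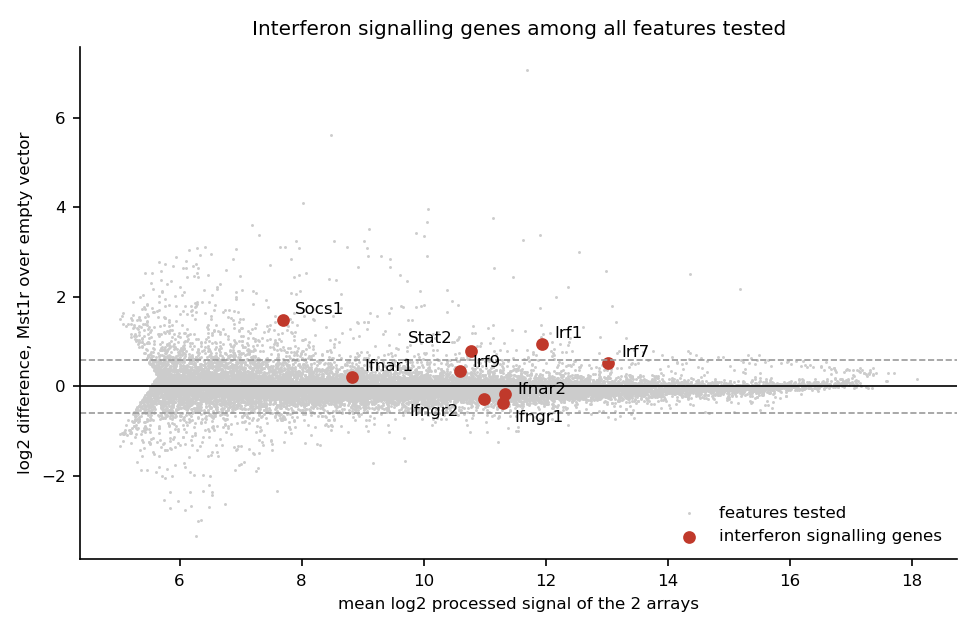
Log2 difference of Mst1r vector from empty vector (vertical axis) against the mean log2 processed signal of both arrays (horizontal axis) for the 17130 features tested (grey) and the 9 genes (red), with dashed lines at 1.5-fold. Socs1, Irf1 and Stat2 lie above the upper line, Irf7 just under it, and Ifnar2, Ifngr1 and Ifngr2 between 0 and the lower line.

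The ligands of the pathway were dim, with the exception of Ifnb1. The gene for IFN-beta read 144.2 on empty vector, 382.6 on Mst1r vector and 122.4 on Slpi vector, a log2 difference of 1.64 ± 0.218 for Mst1r vector and -0.16 ± 0.273 for Slpi vector. Ifng, the gene for IFN-gamma, stayed at background on each array, at 3.984, 4.059 and 3.607. Of 16 type I ligand genes with a probe, 7 were well above background on all arrays and 6 on none. The 7 had a median of 0.43 for Mst1r vector. Only Ifnb1 reached 1.5-fold, and the other 6 lay between 0.04 for Ifna9 and 0.50 for Ifna5, less than their spot error of 0.797, with the unscaled signals of Ifna1 and Ifna9 lower on Mst1r vector. With the signal minimum of 50, 5 remained (median 0.46), of which Ifna5 and Ifnab passed it through the Mst1r vector array alone and Ifna1 was the lowest at 0.17 ± 0.797. Of all features tested with that minimum, 5.11% were at least 1.5-fold higher. Ifna7 (4.043, 21.42 and 6.371) and Ifna15 (10.6, 22.22 and 8.452) were well above background on Mst1r vector only. They were at least 5.804-fold and at least 2.46-fold higher there, with spot errors of 0.897 and 0.797 (log2). Ifnk (27.43, 8.027 and 7.469) was well above background on empty vector only, and at least 1.966-fold lower on Mst1r vector, with a spot error of 0.797 (log2). All of these signals were under the signal minimum, and the Ifna7 probe lay in the rows with stray signal. The Ifna genes are near-identical copies of each other, and which of them a probe reads is uncertain. For the type III ligand and receptor genes the median of 3 was -0.19, from -0.28 ± 0.116 for Il10rb to 0.13 ± 0.797 for Ifnl3.

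Among 5 other STAT and Jak3 genes tested none reached 1.5-fold in Mst1r vector cells, and their median was 0.03 (-0.20 without scaling and -0.07 with spike-in scaling). Of all features, 5.11% were at least 1.5-fold higher and 2.71% lower. Stat5a, which carries signals of growth hormone and prolactin, was the highest at 0.19 ± 0.116 at its brighter probe (-0.07 at the other), and Jak3, a kinase of lymphocyte cytokine receptors, was the lowest at -0.04 ± 0.273. Among 4 other IRFs none reached 1.5-fold and the median was 0.20 (-0.03 without scaling). Irf2, which competes with IRF1 for its sites, was the highest at 0.39 ± 0.273, and Irf3, a sensor-activated driver of IFN-beta transcription, the lowest at 0.03 ± 0.135 at its brighter probe (-0.19 at the other). Stat4 and Irf4 stayed at background on each array.

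Among 12 negative regulators, Socs3 and Cish were at least 2-fold higher in Mst1r vector cells and Socs2 at least 1.5-fold lower. Socs3, an inhibitor of signalling by cytokines such as IL-6, read 2267 on empty vector, 6543 on Mst1r vector and 2147 on Slpi vector, a difference of 1.76 ± 0.125. Cish, an inhibitor of STAT5 signalling, differed by 1.49 ± 0.131 and Socs2, also of the SOCS family, by -0.75 ± 0.145. The other 9 lay within 1.5-fold and the median of the 12 was -0.05.

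Reference targets of ISGF3 were higher in Mst1r vector cells in 18 of 18 genes tested (16 without scaling and 16 with spike-in scaling), and 3 of them were so by at least 1.5-fold (Ifit3, Rsad2 and Ifit1). Of all features, 42.1% were higher (14.7% without scaling and 24.8% with spike-in scaling), and 5.11% were so by at least 1.5-fold. Ifit3, an antiviral protein, read 461.6 on empty vector, 1365 on Mst1r vector and 388.9 on Slpi vector, a difference of 1.80 ± 0.131. The lowest was Herc6, at 0.01 ± 0.145, and the median of the list was 0.45. In Slpi vector cells the median was -0.05, with 9 of 18 higher, as were 50.7% of all features. Herc6 was at least 1.5-fold lower (-0.89 ± 0.145), as were 1.34% of all features.

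Reference targets of IFN-gamma were higher in 12 of 13 genes tested (9 without scaling and 10 with spike-in scaling), with a median of 0.59. Of the 13, 8 were higher by at least 1.5-fold (5 without scaling and 5 with spike-in scaling) and 5 by at least 2-fold. Of all features, 42.1% were higher (14.7% without scaling and 24.8% with spike-in scaling), 5.11% by at least 1.5-fold and 2.29% by at least 2-fold. Gbp2, a GTPase that acts against intracellular pathogens, read 295.3 on empty vector, 3926 on Mst1r vector and 255.5 on Slpi vector, a difference of 3.96 ± 0.131. The other 4 past 2-fold were Iigp1 (3.42 ± 0.131), Gbp5 (2.96 ± 0.596), Cd274 (2.85 ± 0.218) and Igtp (1.24 ± 0.125), named after their values were seen, as are Batf2, Cxcl9, Gbp4, Cd74, Fcgr1 and H2-Ab1 below. Gbp5, at 35.33, 234.4 and 33.22, passed the signal minimum through the Mst1r vector array alone, though it was well above background on all 3. H2-Eb1, a class II antigen-presentation gene, was the lowest at -0.10 ± 0.145. Ciita, the regulator of that class, was at background on all arrays at 1 probe, and its other probe (row 63, among the rows with stray signal) was well above background on empty vector only, at 27.04, 6.102 and 10.63. Among the 9 genes of this list not tested, Batf2, Cxcl9, Gbp4 and Cd74 were well above background on Mst1r vector only. The share of all features with that pattern was not taken, so these are single readings. Batf2 read 17.0, 1029 and 17.48, which is at least 70.98-fold higher, with a spot error of 0.57 (log2). The others were dim: Cxcl9 read 5.411, 54.08 and 3.592, Gbp4 read 9.071, 23.64 and 14.93, and Cd74 read 19.51, 23.89 and 14.01. The probes of Cxcl9 and Gbp4 lay in the rows with stray signal. Fcgr1 went the other way: it was well above background on empty vector only, at 36.40, 5.632 and 4.024. It was thus at least 2.608-fold lower on Mst1r vector, with a spot error of 0.897 (log2). H2-Ab1, at 22.75, 21.62 and 20.19 at its brightest probe, was well above background on empty vector and Slpi vector but not on Mst1r vector. Its scaled difference for Mst1r vector was 0.16 ± 0.797, so no fall was seen, and its other probes were well above background on no array. The Fcgr1 probe and this H2-Ab1 probe lay in the rows with stray signal. In Slpi vector cells 12 could be tested, none reached 1.5-fold and the median was -0.06. Of all features there, 1.44% were at least 1.5-fold higher and 1.34% lower. Genes of both reference lists respond to more than 1 kind of interferon, and Usp18 stands both among the ISGF3 targets and among the negative regulators.

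**Figure D5:**
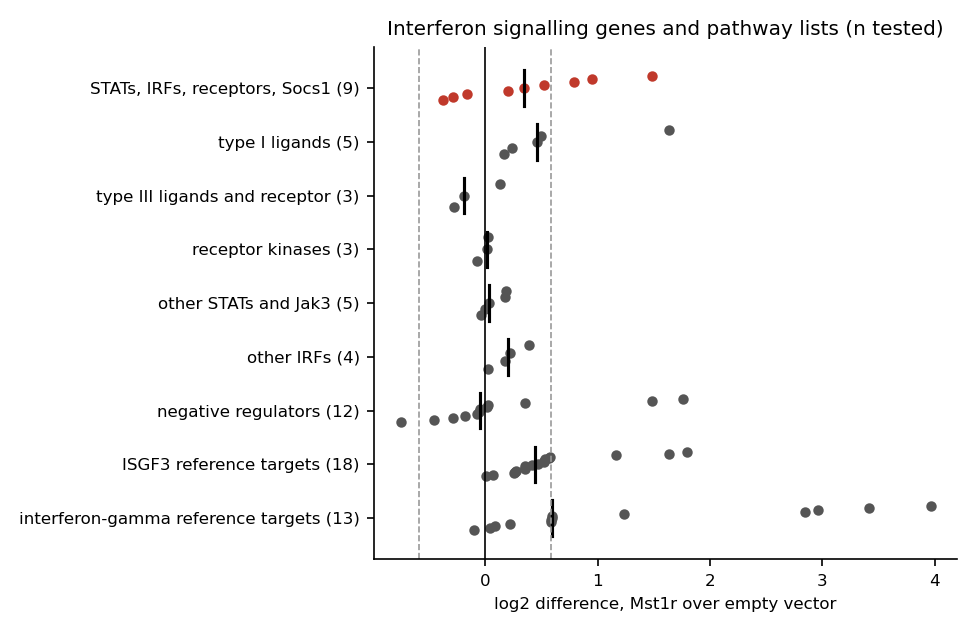
Log2 difference of Mst1r vector from empty vector for the 9 genes (red) and the genes of 8 pathway lists that could be tested (grey), 1 point a gene, with the number tested in brackets, the list median as a black bar and dashed lines at 1.5-fold. The 2 target lists have medians above 0.4, as do the type I ligands, of which Ifna5 and Ifnab passed the signal minimum through Mst1r vector alone. The receptor kinases and the negative regulators have medians near 0. The 4 highest points belong to the IFN-gamma target list, among them Gbp5, which also passed the signal minimum through Mst1r vector alone.

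Markers of other cells were read on the same arrays. Of 7 leukocyte and macrophage markers, 4 were well above background on all arrays (Cd68, Csf1r, Itgam and Cd3e), while Ptprc and Adgre1 were on none. Their summed signal, in multiples of the 75th percentile of each array, was 21.72 on empty vector, 27.44 on Mst1r vector and 22.45 on Slpi vector, so it was highest where Socs1, Irf1 and Stat2 were highest. Csf1r (0.45 ± 0.116 for Mst1r over empty vector) and Itgam (0.34 ± 0.116) gave most of that sum, while Cd68 differed by -0.26 ± 0.145. Ptprc, which marks nearly all leukocytes, read 3.807, 3.772 and 3.325. The sum of 6 fibroblast and stellate markers, 5 of them well above background on all arrays, was 180.5, 152.4 and 184.5 and came mostly from Dcn (-0.35 ± 0.081). That of 10 hepatocyte markers was 1094, 1084 and 1089 and came mostly from Krt18 and Krt8. Among these 10, Alb differed by 0.57 ± 0.135 and Trf by -0.21 ± 0.081 at their brighter probes (Mst1r over empty vector). The sum of 4 endothelial markers, of which only Pecam1 was well above background, was 0.1824, 0.2056 and 0.1372. The part of other cells in the results was not tested.

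The 3 genes whose pair of differences from empty vector lay nearest to that of Socs1, among 12463 named genes, were Cd300ld, Rnf180 and Phf11b, at Euclidean distances of 0.0241, 0.0307 and 0.0529 (log2). Rnf180 read 357.1 on empty vector, 831.6 on Mst1r vector and 331.4 on Slpi vector, and Phf11b read 124.4, 288.2 and 118.6. Cd300ld was dim, at 25.63, 61.14 and 23.44, and lay in the rows with stray signal. The likeness covers 3 arrays only.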

How the data were processed

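Gene expression was measured in Hepa1c1c7 cells on 3 single-colour Agilent arrays, 1 each for empty vector, Mst1r vector and Slpi vector, grouped by the sample labels. Per the file headers, the authors extracted the spot intensities with Feature Extraction 12.0.3.1, a later version than the methods name, from arrays designed on mm9. The deposited processed signal is a linear intensity, background-subtracted and not scaled between arrays. The deposited table of the series matched it within 0.01 (log2) for 99.95% of values (column medians 18.4, 15.34 and 15.54), and was used as an alternative.

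Log2 processed signals were averaged over the spots of a probe without outlier spots, and the 75th percentile of each array over non-control probes was subtracted. No spot was saturated, and no spot of the 9 genes was marked as an outlier. Probes were named by RefSeq accession (GRCm38.p6, names only), which named 32989 of 56605 probes and left 45616 features, each represented by its brightest probe. A feature was tested, meaning compared, if well above background on all 3 arrays and over 50 on the brighter array. Where a dim side was not above background, the fold is a bound, taken against the dim signal itself or, where that is higher, the lowest signal well above background there. No spot error is taken off such a bound. The spot error came from probes with at least 10 spots, controls included, pooled by signal level over the arrays (SD 0.193 at log2 6 to 8 and 0.0817 at 10 to 12). It rested on few probes at these levels: 12 at log2 6 to 8, 4 at 8 to 10 and 4 at 10 to 12. This pooling was chosen after seeing the data. The number of arrays limits the precision, and there is no p-value.

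The 9 genes, the lists and the motifs were chosen with earlier results of these data known. Named by rule were the highest and lowest gene of each list detected on all arrays, the receptor kinases, Ifnb1 and Ifng, and the 3 genes nearest to the largest difference. Cish, Rsad2, Ifit1, Ifna7, Ifna15, Ifnk, Ciita and the genes so marked above were outside this rule and were named with their values known. Of 93 list entries, 7 had no probe, and a few genes are not reported here and were left out of the lists. The lists were ligands of types I, II and III, receptor kinases, other STATs, other IRFs, negative regulators, and targets of ISGF3 and IFN-gamma. In all 11 alternatives were run, with the lists also taken without the signal minimum (chosen after seeing the data). The scaling and folds were run on data simulated from the empty vector array with planted shifts and spot error. Such data hold no variation between cultures, so they check the arithmetic only. Python 3.11.15, numpy 2.4.6, pandas 2.3.3 and limma 3.58.1 (R 4.3.3) were used. Background correction by normexp (offset 50) used median spot and background signals.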

Additional observations from a re-analysis of the deposited data

How the results depend on the processing

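No paired analysis was possible because each group held 1 array. Over 11 alternatives, the number of the 9 genes at least 1.5-fold higher ranged from 2 (no scaling) to 4 (mean over the detected probes of a gene) for Mst1r over empty vector and from 2 (no scaling) to 4 (spike-in scaling) for Mst1r over Slpi vector, and was 0 throughout for Slpi over empty vector. The number at least 1.5-fold lower became 1 without scaling for Mst1r over empty vector, 1 with spike-in scaling for Slpi over empty vector, and 1 without scaling and 1 with median scaling for Mst1r over Slpi vector, against 0 in each as reported. For Mst1r over empty vector, the log2 difference ranged from 1.14 to 1.51 for Socs1, from 0.72 to 1.04 for Irf1 and from 0.56 to 0.84 for Stat2, which was below 1.5-fold without scaling and has no probe in rows 129 to 384. Ifnar2, Ifngr1 and Ifngr2 stayed below 0 in all 11. Keeping outlier spots or dropping the detection filter could not move these values. No spot of the 9 genes was marked as an outlier, and their brightest probes were well above background on all arrays. Ifnar1 ranged from -0.03 (no scaling) to 0.77 (mean over its probes, the one in row 104 included). Scaling moved the median of all features for Mst1r over empty vector to -0.27 without scaling and to -0.14 with spike-ins, with 14.7 and 24.8% of features higher instead of 42.1%. For Slpi over empty vector it moved to 0.17 with median scaling (87.4% higher) and to -0.24 with spike-ins (5.2% higher). All Slpi differences of the 9 genes other than that of Ifnar2 changed sign between median and spike-in scaling. The median of the ISGF3 targets for Mst1r over empty vector ranged from 0.21 to 0.50 and that of the IFN-gamma targets from 0.36 to 0.63, while those of the receptor kinases, other STATs and other IRFs fell below 0 without scaling (-0.21, -0.20 and -0.03), that of the kinases also with spike-in scaling (-0.09) and normexp (-0.04), and that of the STATs also with spike-in scaling (-0.07) and in rows 129 to 384 (-0.04). Without the signal minimum, the median of the type I ligands for Mst1r over empty vector was 0.43 instead of 0.46. Dim probes such as that of Socs1 have the largest spot error among the genes past 1.5-fold, and what differs between cultures could not be measured.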
